A study of Mus musculus with 18 samples.

Results

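PA6 stromal cells kept for 3 days with FGF2 were set directly against PA6 cells kept for the same time with BMP4, each as a mono-culture with no other cell type. PA6 is an established mouse stromal line, able to feed haematopoietic and embryonic stem (ES) cells and to form adipocytes. The members are the 6 expression arrays whose labels give PA6 mono-cultures and 1 of these factors, out of 18 arrays in the series: 3 wells with FGF2 at 20 ng/ml and 3 wells with BMP4 at 10 ng/ml, both recombinant proteins in serum-free medium. The other 12 arrays hold PA6 mono-cultures without factor and ES/PA6 co-cultures with FGF2, with BMP4 or with neither. The study asked how these factors steer ES cells that differentiate on the stroma, and the direct comparison asks where the stroma itself differs between them. No untreated array enters it, so a gene that is higher with FGF2 may have risen with FGF2, fallen with BMP4, or both. Each biological replicate was 1 well per condition, and the p-values measure the spread between wells of this single line.

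FGF2 binds FGF receptors and acts largely through the RAS and ERK kinases, which induce ETS and AP-1 transcription factors together with their own brakes, the dual-specificity phosphatases and Sprouty proteins. BMP4 binds BMP type I and type II receptors, whose kinases phosphorylate SMAD1, SMAD5 and SMAD8. These SMADs switch on the ID genes, which block basic helix-loop-helix factors, and the inhibitory SMAD6 and SMAD7. In mesenchymal stroma BMPs are known to favour commitment to the adipocyte and bone lineages, while FGF2 is a mitogen for the progenitors.

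Signals are given as log2 values after background correction and quantile normalization, n = 3 arrays per group throughout, with ± for the SD of a group or the SE of a difference. The brightest probe of each gene was used, levels of different genes are not comparable, and a difference is always FGF2 minus BMP4. Genes whose probe was detected (detection p below 0.05 against the negative beads of the array) on at least 3 of the 6 arrays were tested, 13051 of 30854 target names. A gene passes this filter when 1 group alone detects it, so the filter itself favours a difference for genes detected in 1 group only. A gene was called at a Benjamini-Hochberg adjusted p below 0.1 and a log2 difference over 1 in size, and "higher" is used below only for called genes. Where no array of a group detected a gene, the fold is given as "at least", against the lowest detected signal of those arrays or the gene's own signal, whichever was higher. The smallest p an exact permutation test can give with 3 against 3 arrays is 0.1, so the p-values come from limma's moderated test across all genes.

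The 6 arrays detected between 17442 and 18391 probes each, and no pair of arrays was identical. Log2 signals correlated at 0.987 to 0.991 across genes within a group and at 0.954 to 0.962 between groups, and the leading principal component, which held 69.8% of the variance, separated the treatments. Of 12 stromal markers 11 were detected, with mean log2 signals per array of 12.28 to 12.5 with FGF2 and 12.04 to 12.23 with BMP4. Of the 11, 2 were higher with FGF2 (3.62% of all genes were). No neural marker of 7, 2 of 10 ES cell markers, 2 of 8 endothelial and 3 of 9 macrophage markers were detected on at least 3 arrays, and none of these was called. The mature adipocyte markers moved with the treatment: 5 of 7 were detected, their mean per array ran from 5.61 to 6.01 with FGF2 and from 8.82 to 9.61 with BMP4, and FABP4 and RETN were detected on no array. In bulk RNA, more adipocyte-like cells and more of these transcripts per cell cannot be told apart.

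FGF2 and BMP4 cultures differed in 956 genes, or 7.33% of those tested, with 472 higher with FGF2 (3.62%) and 484 higher with BMP4 (3.71%). Of the called genes 950 showed no overlap between the 3 FGF2 and the 3 BMP4 arrays, against 38% of all tested genes without overlap. The median difference over all genes was -0.02, the 5th and 95th percentiles were -0.85 and 0.81, and 114 called genes exceeded a log2 difference of 2 towards FGF2 and 104 towards BMP4. Of 100 tested genes detected on no BMP4 array 65 were called, and of 152 detected on no FGF2 array 75 were. Just inside the threshold lay TGM2 and PCSK6, which round to a difference of 1 towards FGF2 and towards BMP4, and just outside it AI481316 at 0.998 and 9530073A13RIK at 0.997.

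BMP target genes lay on the BMP4 side where they were called. Of 30 listed targets 20 were tested, 8 were higher with BMP4 (3.71% of all genes were) and none with FGF2, and the median difference was -0.89. Among the ID genes, ID1 read 7.39, 9.42 and 8.28 with FGF2 and 12.03, 12.18 and 12.02 with BMP4. The BMP4 arrays lay close together and far above the FGF2 arrays, which scattered more widely, and the difference was -3.71 ± 0.433 (limma adjusted p = 0.0009557). ID4 stood at 7.25, 6.86 and 7.21 against 11.49, 10.67 and 10.82, a difference of -3.88 ± 0.226 (adjusted p = 4.638e-05). ID2 followed with 7.96, 7.96 and 8.11 against 11.08, 10.51 and 10.39, a difference of -2.65. The older probe names IDB2 and IDB4 for the same genes gave -3.16 and -4.09. ID3 had the smallest gap of the family: it read 9.72, 9.96 and 10.33 with FGF2 and 11.13, 10.65 and 10.87 with BMP4, without overlap, and at -0.88 (adjusted p = 0.01712) it missed the fold threshold, which it passed without FGF2 replicate 3 (-1.04).

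SMAD6, the inhibitory SMAD that dampens BMP receptors, read 7.94, 8.16 and 8.05 with FGF2 and 10.62, 10.46 and 10.44 with BMP4. Each group was tight (SD 0.11 with FGF2 and 0.10 with BMP4), and the difference was -2.46 ± 0.123 (limma adjusted p = 2.903e-05). SMAD7, the other inhibitory SMAD, was not detected on 3 arrays, nor were the BMP antagonists NOG and CHRDL1. The helix-loop-helix repressors of the HEY and HES family, shared by the BMP and Notch pathways, moved the same way. HEY1 was detected on no FGF2 array and read 9.69, 10.02 and 9.43 with BMP4, at least 12.24-fold higher. HEY2 was likewise seen only on the BMP4 arrays, at 7.83, 8.56 and 7.997, at least 4.082-fold higher. HES1 differed by -1.62 and ATOH8, a BMP-induced helix-loop-helix factor, by -1.73. The homeobox factor MSX1 (-0.25, adjusted p = 0.3208) and the zinc-finger factors GATA2 (-0.33) and GATA3 (0.15) were not called.

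Promoter windows show the sequence ahead of the start of the called BMP targets. The windows hold the 250 bases upstream of the annotated start in RefSeq for GRCm38.p6, and 5 of the 8 called BMP targets had one. The 6-letter GC palindrome GGCGCC, a form of the GC-rich sequence that SMAD1 and SMAD5 can bind, was searched with its looser relative GGCGCNNCC, with which it can overlap, and the SMAD palindrome GTCTAGAC, on both strands. GGCGCC was found in the windows of ID2 and ID4 and not in those of ATOH8, HEY2 and SMAD6, that is in 2 of 5, against 9.59% of all 32851 windows, 16.5% of those of tested genes, 19.4% of those of all genes higher with BMP4 and 4 of 14 (28.6%) of those of adipocyte genes higher with BMP4. GGCGCNNCC was found in 1 of the 5 windows, against 6.93% of all, 12.1% of those of tested genes, 11.4% of those of all genes higher with BMP4 and 3 of 14 (21.4%) of those of sterol synthesis genes, and GTCTAGAC in none, against 0.167%. A match is a description of the letters and not a bound site. The ID2 and ID4 windows are shown because both genes were higher with BMP4 and hold the palindrome, marked by capitals.
ID2 chr12:25096093-25096342 (minus strand): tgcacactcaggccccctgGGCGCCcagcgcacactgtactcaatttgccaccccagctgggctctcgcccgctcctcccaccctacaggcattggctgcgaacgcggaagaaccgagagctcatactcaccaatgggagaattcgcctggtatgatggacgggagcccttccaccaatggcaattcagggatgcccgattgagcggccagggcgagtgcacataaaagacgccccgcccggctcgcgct
ID4 chr13:48260866-48261115 (plus strand): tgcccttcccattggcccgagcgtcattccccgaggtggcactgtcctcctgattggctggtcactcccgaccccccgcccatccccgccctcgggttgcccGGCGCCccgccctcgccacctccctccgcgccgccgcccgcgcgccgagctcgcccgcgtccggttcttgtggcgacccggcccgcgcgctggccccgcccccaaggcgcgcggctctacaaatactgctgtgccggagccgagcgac

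**Figure D1:**
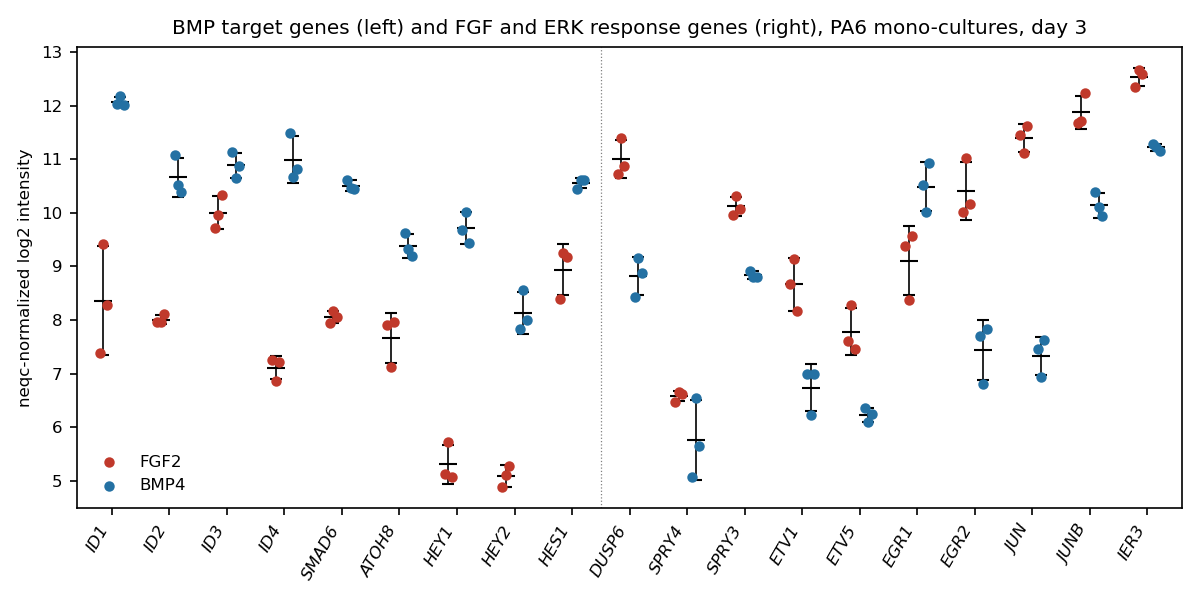
Log2 signal of BMP target genes (ID1 to HES1) and of FGF and ERK response genes (DUSP6 to IER3) on each of the 3 FGF2 and 3 BMP4 arrays, with points for arrays and bars for the group mean ± SD. ID1, ID2, ID4, SMAD6, HEY1 and HEY2 lay higher on every BMP4 array and DUSP6, JUN and EGR2 on every FGF2 array, while EGR1 lay higher with BMP4 and SPRY4 overlapped.

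Components of the BMP pathway itself were also examined. Of 30 ligands, receptors and SMADs 17 were tested and 2 were higher with FGF2, with a median of 0.42, where 7.33% of all genes were called. The ligand BMP4 itself read 11.07, 11.32 and 11.69 with FGF2 and 9.72, 9.73 and 10.36 in the cultures that received BMP4 protein, a difference of 1.42 ± 0.225 (limma adjusted p = 0.004091). BMP1, listed with the ligands but a procollagen protease despite its name, differed by 1.31. The receptor BMPR1A (0.25, adjusted p = 0.2084) and SMAD1 (-0.09, adjusted p = 0.7941) were not called.

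The FGF and ERK response genes were mixed. Of 36 listed 26 were tested, 8 were higher with FGF2 (3.62% of all genes were) and 1 with BMP4, and the median was 0.39. JUN, an AP-1 subunit, had the largest difference, with 11.45, 11.11 and 11.62 under FGF2 and 7.46, 6.94 and 7.62 under BMP4, or 4.05 ± 0.211 (limma adjusted p = 3.158e-05). The early growth response factor EGR2 read 10.02, 11.02 and 10.16 against 7.69, 6.80 and 7.84, a difference of 2.96. DUSP6, the phosphatase that inactivates ERK, read 10.73, 11.40 and 10.87 against 8.43, 9.15 and 8.88, a difference of 2.18 ± 0.235 (adjusted p = 0.000659). None of these 3 genes had a BMP4 array reaching an FGF2 array. The ETS factors ETV1 (1.92) and ETV5 (1.55), JUNB (1.74), the survival gene IER3 (1.31) and SPRY3 (1.28) were also higher with FGF2. EGR1 went the other way: it read 9.38, 8.37 and 9.57 with FGF2 and 10.52, 10.01 and 10.93 with BMP4, a difference of -1.37 (adjusted p = 0.02881). The phosphatase DUSP4 (0.23), FOS (0.76, adjusted p = 0.02496), MYC (-0.01) and SPRY4 (0.83, adjusted p = 0.123) were not called, and SPRY4 passed at 1.23 without BMP4 replicate 2, the array on which it was highest in that group.

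The receptors FGFR2 and FGFR3 were lower in the FGF2 cultures. Of 21 FGF pathway members 11 were tested, with a median of -0.36. Of these 1 was higher with FGF2 (3.62% of all genes were) and 3 with BMP4 (3.71%). FGFR2 read 10.56, 10.68 and 10.56 with FGF2 and 12.83, 12.92 and 13.00 with BMP4. The replicates nearly coincided, the difference was -2.32 ± 0.116 (limma adjusted p = 2.903e-05), and its other detected probe gave -2.70. FGFR3 was detected only with BMP4, at 6.71, 7.52 and 6.60, at least 1.793-fold higher. Without background correction FGFR3 (-0.95) and FGF18 (-0.90) fell below the fold threshold. FGFR1 differed by -0.86 and was not called, although the other detected probe of the gene gave -1.31. The ligand FGF18 was higher with BMP4 (-1.67) and the heparan sulphate co-receptor SDC4 with FGF2 (1.21), while FGF7, a stromal ligand for FGFR2, was not called (0.35, adjusted p = 0.152).

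The 10 largest differences each way were taken among called genes without overlap. Towards FGF2 they were SERPINA3N, SPP1, SERPINA3F, HSD11B1, SAA3, SLPI, LCN2, PRL2C3, LOC100046802 and IL13RA1. Towards BMP4 they were ADIPOQ, CFD, CIDEC, FAM107A, FMO1, NPR3, ORM1, HEY1, BC054059 and LPL. HSD11B1, which regenerates active glucocorticoid, read 15.42, 15.61 and 15.45 with FGF2 and 10.28, 11.03 and 9.98 with BMP4, a difference of 5.06 ± 0.25 (limma adjusted p = 2.903e-05), and its other probes gave 4.99 and 5.06. SPP1, the matrix phosphoprotein osteopontin, read 13.67, 13.92 and 13.30 against 7.63, 5.44 and 7.26, a difference of 6.86 ± 0.511. The BMP4 arrays of SPP1 were themselves scattered, and BMP4 replicate 2 did not detect it. NPR3, the clearance receptor for natriuretic peptides, read 8.78, 7.93 and 8.52 with FGF2 and 12.88, 12.93 and 13.14 with BMP4, a difference of -4.58 ± 0.217. FAM107A was detected only with BMP4, at 10.96, 10.85 and 10.48, at least 25.31-fold higher. PRL2C3, of the prolactin-related proliferin family, was detected only with FGF2 (at least 8.781-fold higher).

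**Figure D2:**
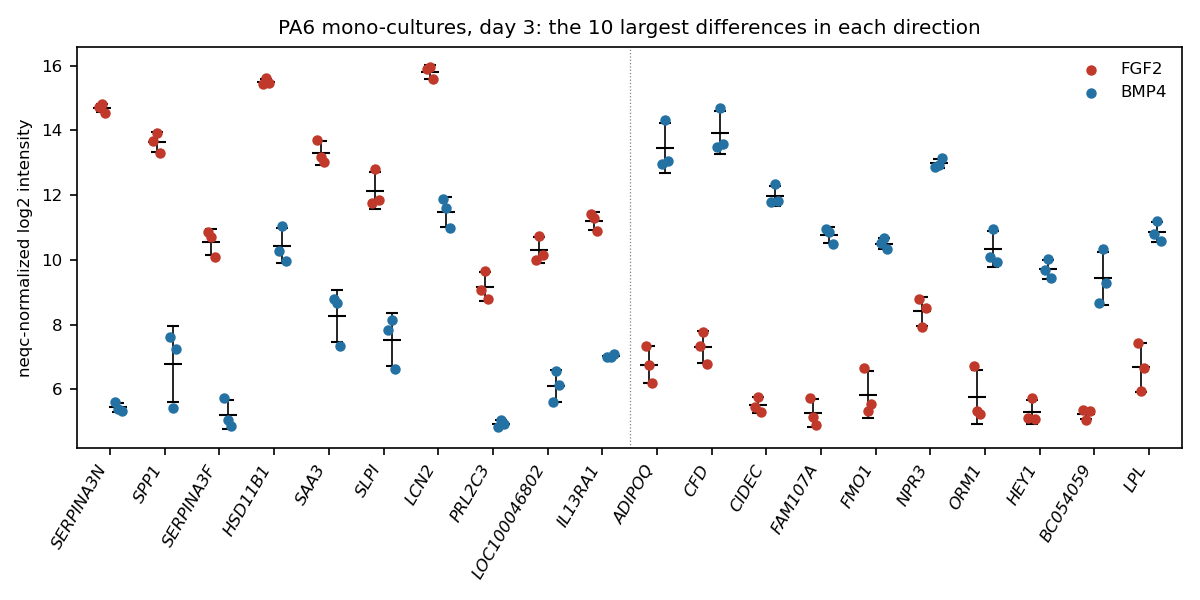
Log2 signal of the 10 genes with the largest difference in each direction on every FGF2 and BMP4 array, with points for the 3 arrays of each group and bars for the mean ± SD. The genes were chosen among those without overlap, so the groups are separate for every gene shown. SERPINA3N lies near 14.7 against 5.4 and ADIPOQ near 6.8 against 13.5.

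Acute-phase proteins and serpins had the highest median of any list examined, 2.43, with 16 of 21 members tested, 10 higher with FGF2 (3.62% of all genes were) and 2 with BMP4 (3.71%). The list was uneven: the 5 tested SERPINA3 genes had a median of 3.36 and the 11 other members one of 0.36. Of those 11, 5 were higher with FGF2, 2 with BMP4 and 4 were not called. SERPINA3N, a secreted inhibitor of serine proteases, held the largest difference of the comparison. It read 14.73, 14.80 and 14.54 with FGF2 and was detected on no BMP4 array, where its signal was 5.61, 5.40 and 5.33, so that it was at least 401.7-fold higher with FGF2 (9.24 ± 0.134 on the log2 scale, limma adjusted p = 4.191e-08). The whole tested SERPINA3 cluster, 5 of 5 genes, was higher with FGF2. SERPINA3F was at least 22.84-fold, SERPINA3H at least 5.547-fold and SERPINA3M at least 3.229-fold higher, and SERPINA3G, detected on all arrays, differed by 2.90. These neighbouring genes are close copies of each other, and shared probe signal was not tested.

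SAA3, a serum amyloid A made outside the liver, read 13.71, 13.16 and 13.02 with FGF2 and 8.79, 8.67 and 7.33 with BMP4, a difference of 5.03 ± 0.38 (limma adjusted p = 0.0001304). LCN2, the iron-siderophore carrier lipocalin, read 15.88, 15.96 and 15.57 against 11.88, 11.61 and 10.97, a difference of 4.32 ± 0.235. The leukocyte protease inhibitor SLPI read 11.76, 12.81 and 11.85 against 7.85, 8.14 and 6.63, a difference of 4.60. No BMP4 array reached an FGF2 array for any of these. Ceruloplasmin CP (2.50) and the pentraxin PTX3 (1.41) were higher with FGF2 as well. The orosomucoids ORM1 and ORM2, lipid-carrying plasma proteins, went the other way at -4.55 and -4.12. Complement C3 (0.05) and haptoglobin HP (0.36, adjusted p = 0.06839), both bright on all arrays, were not called.

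Cytokines, chemokines and their receptors were called more often on the FGF2 side. Of 50 listed 35 were tested, 16 were higher with FGF2 (3.62% of all genes were), 4 with BMP4 (3.71%), 15 were not called, and the median was 0.85. CCL2, which recruits monocytes, read 13.17, 13.36 and 12.96 with FGF2 and 9.32, 9.33 and 9.38 with BMP4, a difference of 3.83 ± 0.135 (limma adjusted p = 1.427e-05). The alarmin IL33 read 12.10, 12.22 and 11.73 against 8.41, 8.42 and 8.73, a difference of 3.49, and IL1RL1, its receptor, was detected with FGF2 only, at 9.12, 10.25 and 9.34, at least 11.57-fold higher. Ligand and receptor were thus higher in the same cultures. IL6 was also detected with FGF2 only, at 7.80, 8.17 and 8.17 (at least 4.025-fold higher), and IL6ST, its signalling chain, differed by 1.34. IL13RA1, a chain of the IL-4 and IL-13 receptor, read 11.42, 11.29 and 10.89 against 6.99, 7.01 and 7.10, a difference of 4.17. CSF3, the granulocyte growth factor, was higher with FGF2 on a probe that no BMP4 array detected, and since 1 of those arrays detected another probe of the gene, no fold is given. The eotaxin CCL11 differed by 1.84, CCL9 by 2.72 and CCL7 by 2.10. CXCL14 was at least 4.241-fold higher with FGF2 and CXCL15 at least 4.722-fold higher with BMP4.

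Among 18 stromal niche factors 12 were tested, with a median of 0.10. In each direction 1 was called, SPP1 and the Notch ligand JAG1 (-1.87), where 7.33% of all genes were called. CXCL12, the chemokine that retains haematopoietic progenitors, read 15.90, 15.65 and 15.88 with FGF2 and 16.02, 15.79 and 15.85 with BMP4 (-0.07, limma adjusted p = 0.7407). Its other probes gave -0.02, -0.57 and 0.25. VCAM1 (0.27) and ANGPT1 (0.66) were not called, and KITL was not detected on 3 arrays.

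Sterol synthesis genes lay together on the FGF2 side. The list held 25 genes of the mevalonate and cholesterol pathway and its control and 11 of fatty acid synthesis, of which 21 and 8 were tested. All 21 sterol genes tested were higher with FGF2 (3.62% of all genes were), over a narrow range of 1.02 to 2.81 with a median of 1.70, against 2 of 8 fatty acid genes with a median of 0.45. In none of the 21 did an FGF2 array fall below a BMP4 array, the gap between the lowest FGF2 and the highest BMP4 array running from 0.46 to 2.46. Groups did not overlap for 38% of all tested genes and for 950 of the 956 called ones, so this adds little to the calls. MVD, which makes isopentenyl pyrophosphate, read 10.68, 10.71 and 10.62 with FGF2 and 7.78, 8.16 and 7.64 with BMP4, a difference of 2.81 ± 0.155 (limma adjusted p = 3.702e-05). CYP51, the lanosterol demethylase, read 12.32, 12.12 and 12.15 against 9.76, 10.07 and 9.53, a difference of 2.41. FDPS, farnesyl pyrophosphate synthase, read 13.66, 13.62 and 13.66 against 11.38, 11.58 and 11.01, a difference of 2.32.

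Along the early steps lay ACAT2 (1.08), MVK (at least 2.503-fold higher), IDI1 (1.42), the squalene epoxidase SQLE (1.70) and the cyclase LSS (2.05). The later steps from lanosterol to cholesterol followed with SC4MOL at 2.12, HSD17B7 at 1.99, NSDHL at 1.70, TM7SF2 at 1.42, DHCR7 at 1.39, EBP at 1.08 and SC5D at 1.02. Transport and control genes were higher beside the enzymes: the sterol carrier STARD4 differed by 1.82, the transcription factor SREBF2 by 1.42 and INSIG1, which holds SREBP in the endoplasmic reticulum, by 1.07. Of the fatty acid genes SCD2 (1.15) and ELOVL6 (1.06) were higher with FGF2, while SCD1 (0.37), ACLY (0.32) and FADS1 (0.22) were not called. Without background correction 17 of the 23 stayed called, and IDI1, DHCR7, SC5D, TM7SF2 and ELOVL6 were among those that fell below the fold threshold, IDI1 to 0.78. Leaving out 1 array took 5 genes near the threshold below it: SC5D (0.97 without FGF2 replicate 1, 0.72 without BMP4 replicate 1), INSIG1 (0.95 without FGF2 replicate 1, 0.98 without BMP4 replicate 3), ELOVL6 (0.93 without FGF2 replicate 1), SCD2 (0.80 without BMP4 replicate 1) and ACAT2 (0.92 without BMP4 replicate 3).

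The CCAAT box, which binds the factor NF-Y, is known to lie beside sterol regulatory elements. It was found on either strand in the windows of 12 of the 14 sterol synthesis genes that had one (85.7%), against 33.8% of all windows, 37% of those of tested genes and 35.7% of those of all genes higher with FGF2. ACAT2 and DHCR7 had a window without it. The box was also in 3 of 5 windows (60%) of called BMP targets. It was in 2 of 14 (14.3%) of those of adipocyte genes higher with BMP4 and 0 of 8 of those of acute-phase genes higher with FGF2. The sterol regulatory element in the form TCACNCCAC was in none of the 14, against 1.05% of all windows. The E-box CACGTG was in 3 of 14, against 6.02% of all windows, 8.47% of those of tested genes and 1 of 5 of those of called BMP targets. No match says only that these letters are not in the window. The windows of MVD, CYP51 and LSS are shown because these genes had some of the largest differences of the block, and capitals mark CCAAT or its reverse complement ATTGG.
MVD chr8:122443423-122443672 (minus strand): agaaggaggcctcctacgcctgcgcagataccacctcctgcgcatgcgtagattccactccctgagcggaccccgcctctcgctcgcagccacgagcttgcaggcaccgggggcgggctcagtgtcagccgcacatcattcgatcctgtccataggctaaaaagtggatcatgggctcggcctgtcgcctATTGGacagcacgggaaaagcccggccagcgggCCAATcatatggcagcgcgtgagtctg
CYP51 chr5:4104698-4104947 (minus strand): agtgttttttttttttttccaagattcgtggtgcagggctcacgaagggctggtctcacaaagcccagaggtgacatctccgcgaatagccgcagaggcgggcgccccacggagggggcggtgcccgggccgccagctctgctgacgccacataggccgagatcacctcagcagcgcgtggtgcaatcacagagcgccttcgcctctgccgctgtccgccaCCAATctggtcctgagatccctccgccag
LSS chr10:76531355-76531604 (plus strand): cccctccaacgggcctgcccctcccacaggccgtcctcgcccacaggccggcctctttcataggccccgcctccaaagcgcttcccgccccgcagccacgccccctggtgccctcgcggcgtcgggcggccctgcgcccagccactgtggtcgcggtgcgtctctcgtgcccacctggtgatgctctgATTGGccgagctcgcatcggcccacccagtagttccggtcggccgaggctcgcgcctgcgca

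**Figure D3:**
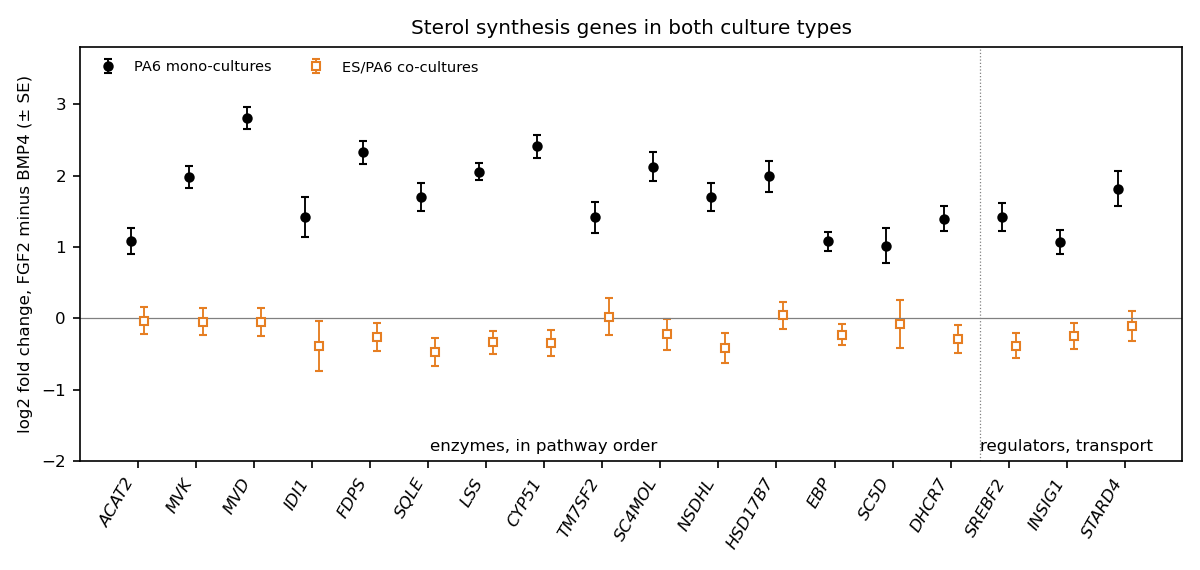
FGF2 minus BMP4 difference in log2 signal, with its SE, for sterol synthesis genes in PA6 mono-cultures and in ES/PA6 co-cultures. The mono-culture values shown lie between 1.02 and 2.81, and no co-culture value is called. Mono-culture values are from the fit of 6 arrays and co-culture values from that of 12.

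Adipocyte genes lay on the other side. Of 45 listed 29 were tested, 18 were higher with BMP4 (3.71% of all genes were), 1 was higher with FGF2, and the median was -1.24. Of the secreted adipokines, ADIPOQ, the hormone adiponectin, read 7.34, 6.75 and 6.19 with FGF2 and 12.96, 14.33 and 13.06 with BMP4, a difference of -6.69 ± 0.407 (limma adjusted p = 5.327e-05). CFD, the complement protease adipsin, read 7.34, 7.77 and 6.79 against 13.48, 14.68 and 13.59, a difference of -6.62. CIDEC, which enlarges lipid droplets, was detected on no FGF2 array and read 11.78, 12.34 and 11.81 with BMP4, at least 58.79-fold higher. These 3 genes had the largest differences towards BMP4 of all genes tested. The droplet coat protein perilipin, PLIN, was at least 2.945-fold higher, S3-12, now Plin4, differed by -2.66 and D930001I22RIK, now Fitm2, by -1.22.

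Enzymes of lipid uptake, storage and release followed. The lipoprotein lipase LPL read 7.42, 5.93 and 6.67 with FGF2 and 10.79, 11.19 and 10.59 with BMP4, a difference of -4.17 (limma adjusted p = 0.0001899). DGAT2, which makes triglyceride, differed by -3.70, the acyl-CoA synthetase ACSL1 by -2.84, FABP5 by -2.71, the lipase PNPLA2 by -1.74 and AGPAT2 by -1.40. GPD1 was at least 2.451-fold and the glycerol channel AQP7 at least 1.657-fold higher with BMP4, and the lipase LIPE was also detected with BMP4 only, too near the background for a fold. Of the transcription factors, PPARG, the master regulator of fat cells, was detected on every array and read 10.21, 10.32 and 10.17 against 10.98, 12.09 and 11.22, a difference of -1.20 (adjusted p = 0.01792), with -2.06 and -1.54 from its other probes. CEBPA differed by -1.24, while CEBPB (0.66) and CEBPD (0.48), which act earlier in the lineage, were not called. FABP4, CD36, FASN, SLC2A4 and RBP4, abundant in mature fat, were not detected on 3 arrays, and leptin LEP was not called (-0.28). The exception towards FGF2 was ANGPTL4, an inhibitor of lipoprotein lipase, which read 11.95, 11.08 and 11.56 against 8.10, 7.64 and 7.67, a difference of 3.73.

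One BMP4 culture stood out in this group. Of the 18 adipocyte genes higher with BMP4, 17 had their highest signal on BMP4 replicate 2, against 142 of the 484 genes higher with BMP4 (29.3%), and what set this well apart was not tested. Without that array 15 of the 19 calls remained, and PPARG (-0.87), CEBPA (-0.98), D930001I22RIK (-0.86) and LIPE (-0.98) fell below the fold threshold, LIPE also without FGF2 replicate 2 (-0.998). ADIPOQ, CFD and CIDEC were still called without it. Without background correction GPD1 (-0.91), CEBPA (-0.98) and LIPE (-0.57) fell below the threshold.

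**Figure D4:**
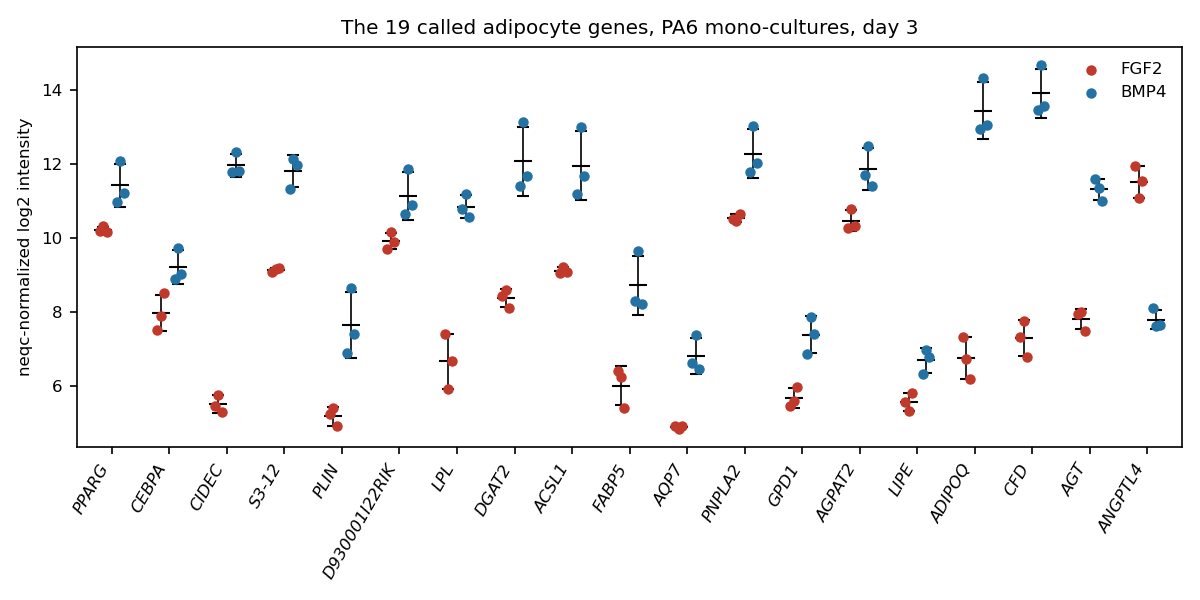
Log2 signal of the 19 called adipocyte genes on each FGF2 and BMP4 array. BMP4 arrays lie above FGF2 arrays for every gene but ANGPTL4, and BMP4 replicate 2 is the highest array for 17 of the 18 genes higher with BMP4.

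Detoxification enzymes were called more often towards BMP4, with 31 of 38 tested, 11 higher with BMP4 (3.71% of all genes were), 2 with FGF2 (3.62%), 18 not called and a median of -0.41. FMO1, a flavin monooxygenase, read 6.67, 5.32 and 5.54 with FGF2 and 10.52, 10.66 and 10.33 with BMP4, a difference of -4.66, although its other detected probe gave only -1.01. The retinaldehyde dehydrogenase relative ALDH1A7 read 6.16, 5.84 and 5.32 against 9.20, 11.22 and 9.26, a difference of -4.12, and again BMP4 replicate 2 was the highest. ALDH1A1, which makes retinoic acid, differed by -2.43 and the aldehyde oxidase AOX3 by -2.71. The glutathione transferases GSTA3 differed by -3.41, GSTT1 by -2.29 and GSTM1 by -1.18, although the other detected probe of GSTM1 gave only -0.16. The mitochondrial folate enzyme ALDH1L2 went towards FGF2 at 2.05.

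**Figure D5:**
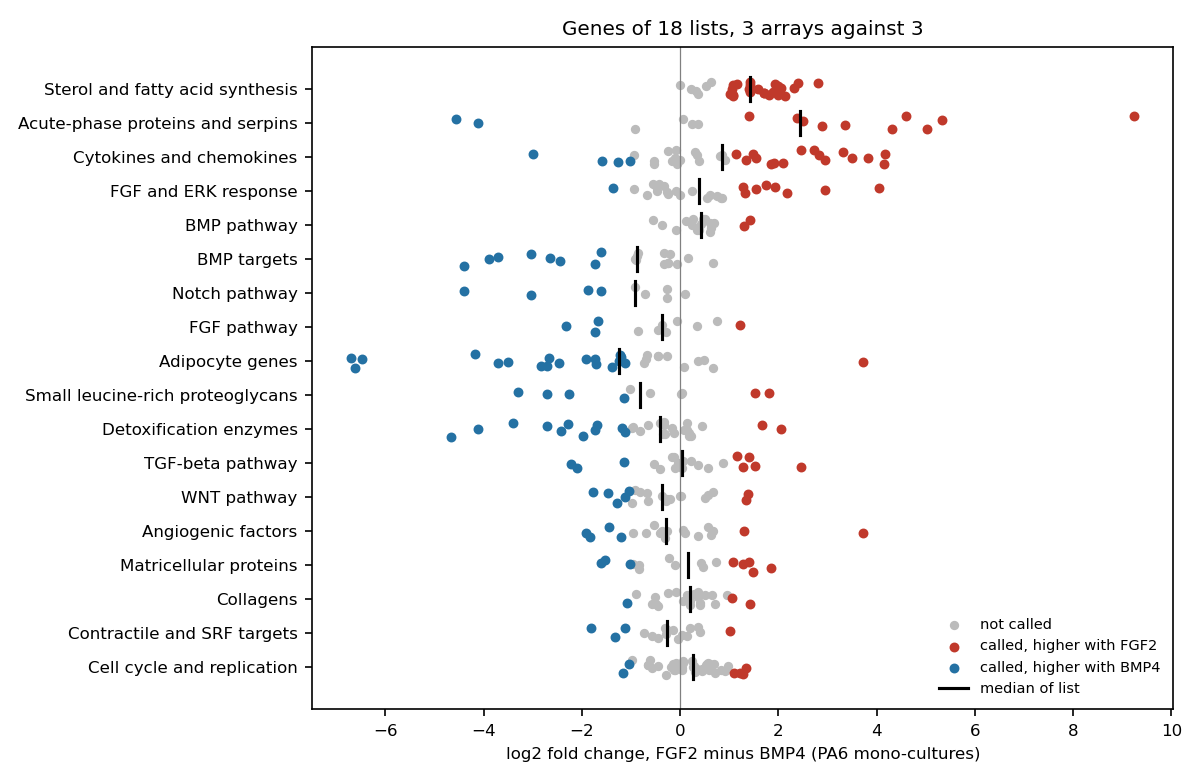
FGF2 minus BMP4 difference in log2 signal for every tested member of 18 gene lists, a dot per gene and a bar at the median of each list. Sterol and acute-phase members lie mostly above 0, adipocyte members and BMP targets mostly below 0, and collagens and cell cycle genes around 0.

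Matrix genes were called in both directions. Of 34 collagens 24 were tested, with a median of 0.20, and COL1A1 was not called (0.06). The 2 higher with FGF2 (3.62% of all genes were) were COL3A1 at 1.42 and COL5A3 at 1.06. The 1 higher with BMP4 (3.71% of all genes were) was COL27A1 at -1.07, although its other detected probe gave only -0.29. COL27A1 was not called without FGF2 replicate 2 (-0.73) or 3 (-1.13, adjusted p = 0.1013) or BMP4 replicate 1 (-0.93) or 3 (-0.97), and COL5A3 fell to 0.95 without FGF2 replicate 2 and 0.93 without BMP4 replicate 2. Without background correction COL27A1 (-0.77), COL5A3 (0.79), PODN (0.97) and DPT (0.85) fell below the threshold. Small leucine-rich proteoglycans, which space collagen fibrils, had 10 of 15 members tested and a median of -0.82. Of the 10, 4 were higher with BMP4 (3.71% of all genes were) and 2 with FGF2 (3.62%). FMOD was detected only with BMP4, at 8.97, 8.04 and 8.80, at least 5.657-fold higher, OMD differed by -2.70 and OGN by -2.27. PODN was at least 2.203-fold higher with FGF2, and DPT differed by 1.53, with no call without FGF2 replicate 1 (1.11, adjusted p = 0.1049), BMP4 replicate 2 (1.35) or BMP4 replicate 3 (1.35). DCN, at 15.79 to 15.96 on all 6 arrays, did not pass (0.02), although other probes of the gene ran from -1.53 to -0.15.

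Of 30 matrix proteases and inhibitors 20 were tested, with a median of 0.00. Of these 5 were higher with FGF2 (3.62% of all genes were) and 2 with BMP4 (3.71%). The stromelysin MMP3 was detected with FGF2 only, at 8.97, 7.99 and 9.65, at least 7.108-fold higher. The gelatinase MMP9 read 8.92, 8.76 and 8.49 with FGF2 and 5.74, 6.45 and 6.53 with BMP4, a difference of 2.48 (limma adjusted p = 0.0003037), and the inhibitor TIMP1 was higher beside them at 2.12. ADAMTS1 differed by 1.63. The ADAMTS-like proteins ADAMTSL4 (-2.81) and ADAMTSL1 (-2.98) were higher with BMP4. Among matricellular proteins, 16 of 22 tested, 5 were higher with FGF2 (3.62% of all genes were) and 3 with BMP4 (3.71%). The FGF2 side was led by TNC at 1.84, WISP1 at 1.49 and CTGF at 1.40, with 0.50 and 1.87 from other TNC probes. The BMP4 side was led by SMOC1 at -1.60 and THBS1 at -1.53, and the median was 0.16.

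TGF-beta signalling genes split. Of 23 listed 21 were tested, with a median of 0.04. Of these 5 were higher with FGF2 (3.62% of all genes were) and 3 with BMP4 (3.71%). The ligand TGFB1 read 8.54, 8.71 and 8.67 with FGF2 and 8.68, 8.74 and 8.84 with BMP4 and was not called (-0.11, limma adjusted p = 0.5626). TGFB3 read 8.27, 8.32 and 8.86 against 10.66, 10.47 and 10.99, a difference of -2.22, and TGFB2 did not pass (0.86), though it did without FGF2 replicate 3 (1.01) or BMP4 replicate 2 (1.02). On the receptor side TGFBR2 (1.51) and ACVR1B (1.28) were higher with FGF2, although the other detected probe of ACVR1B gave only 0.26. TGFBR1 was not called (0.57, limma adjusted p = 0.05406). The target gene TGFBI was higher with FGF2 (2.46). The related repressors SNAI1 and SNAI2 took opposite sides: SNAI1 read 11.09, 11.68 and 11.66 against 10.30, 10.59 and 10.05 (1.17), and SNAI2 read 11.87, 11.61 and 11.77 against 13.80, 13.93 and 13.81 (-2.09).

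Of 46 WNT pathway members 21 were tested, with a median of -0.37. Of these 5 were higher with BMP4 (3.71% of all genes were) and 2 with FGF2 (3.62%). The receptor FZD5 differed by -1.78, although its other detected probe gave only -0.36. The agonist RSPO2 differed by -1.47, the feedback target AXIN2 by -1.29 and FZD7 by -1.12 (-0.98 without FGF2 replicate 2). Higher with FGF2 were the secreted antagonist FRZB (1.37) and the receptor ROR1 (1.35). The Notch list had 9 of 15 members tested and 4 higher with BMP4 (3.71% of all genes were), with a median of -0.93. However, 3 of these 4, HEY1, HEY2 and HES1, also stand among the BMP targets, the other being JAG1. Without background correction AXIN2 (-0.77), FRZB (0.99) and ROR1 (0.75) fell below the fold threshold. Of 30 angiogenic factors 20 were tested, with a median of -0.28. Of these 2 were higher with FGF2 (3.62% of all genes were) and 4 with BMP4 (3.71%). NRP1, a co-receptor for VEGF, read 12.80, 12.01 and 12.55 against 14.21, 14.46 and 14.41, a difference of -1.91, MET was at least 1.792-fold higher with BMP4, EDN1 differed by -1.45 and ANGPT2 by 1.29, and VEGFA was not called (0.37, limma adjusted p = 0.1407). EDN1 (-0.86) and ANGPT2 (0.78) lost their calls without background correction.

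The angiotensin system showed a substrate and an enzyme on opposite sides. AGT, the precursor of angiotensin, read 7.96, 8.01 and 7.50 with FGF2 and 11.60, 11.35 and 11.01 with BMP4, a difference of -3.50 ± 0.198 (limma adjusted p = 4.14e-05). ACE, the converting enzyme, was detected with FGF2 only, at 8.93, 8.94 and 8.84, at least 7.277-fold higher. Of 13 members 5 were tested, with a median of 0.26. The peptidases MME (1.03) and ANPEP (-1.33) completed 2 calls each way, where 3.62% of all genes were higher with FGF2 and 3.71% with BMP4. MME fell below the threshold without FGF2 replicate 1 (0.79) or BMP4 replicate 3 (0.96), and ANPEP was not called without FGF2 replicate 2 (-0.93) or BMP4 replicate 3 (-1.16, adjusted p = 0.1177). Both also missed it without background correction (MME 0.99, ANPEP -0.97).

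Of 54 cell cycle and replication genes 39 were tested, 4 were higher with FGF2 (3.62% of all genes were) and 2 with BMP4 (3.71%), with a median of 0.26. The cyclin CCND1 (1.10, limma adjusted p = 0.05543), the thymidine kinase TK1 (1.34), the mitotic kinase PLK1 (1.22) and BIRC5 (1.28) were higher with FGF2 and highest on FGF2 replicate 2, and none was called without that array (CCND1 0.80, TK1 0.94, PLK1 0.82, BIRC5 0.89). Without BMP4 replicate 3 the calls of TK1 (1.10, adjusted p = 0.1126), PLK1 (0.96) and BIRC5 (0.99) were lost too, without BMP4 replicate 1 those of CCND1 (1.17, adjusted p = 0.1064) and PLK1 (1.26, adjusted p = 0.1179), and without BMP4 replicate 2 that of CCND1 (0.81). The kinase inhibitor CDKN1B (-1.16) was higher with BMP4 and fell to -0.89 without FGF2 replicate 2, and its other detected probe gave only -0.42. The replication gene MCM3 (-1.03) was higher with BMP4 too. MCM3 fell to -0.81 without FGF2 replicate 3, -0.96 without BMP4 replicate 1 and -0.999 without BMP4 replicate 3. Of 14 replication genes tested 1 was called each way, with a median of -0.13. Without background correction TK1 (0.88), PLK1 (0.81), BIRC5 (0.91), CDKN1B (-0.91) and MCM3 (-0.52) fell below the threshold. TOP2A (0.06), MCM5 (-0.10) and RRM2 (-0.97) were not called. RRM2 passed without FGF2 replicate 2 (-1.05), without BMP4 replicate 3 (-1.12) and with median scaling (-1.04), while its other probes gave -0.50 and -0.38. Of 30 glycolysis and hypoxia genes 24 were tested, with a median of 0.19, where 7.33% of all genes were called. Of these 1 was higher with FGF2 (ANKRD37, 1.80) and 2 with BMP4 (NDRG1, -1.21, and PFKP, -1.10). NDRG1 missed the threshold without FGF2 replicate 2 (-0.97) or BMP4 replicate 1 (-0.91), and PFKP without FGF2 replicate 1 (-0.92) or without background correction (-0.92).

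Of 34 interferon-inducible genes 23 were tested, with a median of 0.41. Of these 3 were higher with FGF2 (3.62% of all genes were) and 1 with BMP4 (3.71%). That 1 was the transcription factor IRF5, detected on no FGF2 array and at 9.09, 8.83 and 9.21 with BMP4, at least 7.675-fold higher, while the antiviral RSAD2 was at least 2.26-fold higher with FGF2. Of 21 osteoblast lineage genes 10 were tested, with a median of 0.54. The 3 higher with FGF2 (3.62% of all genes were) were SPP1, the pyrophosphate-making ENPP1 (at least 2.878-fold) and the osteoclast factor TNFSF11 (1.55). PHEX was higher with BMP4 (at least 1.91-fold), as were 3.71% of all genes. The mineralization enzyme AKP2, alkaline phosphatase, was not called (-0.11). TNFSF11 (0.98) and PHEX (-0.88) fell below the threshold without background correction.

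The remaining lists are read against the 7.33% of all genes called. Of 22 contractile genes 18 were tested, and smooth muscle actin ACTA2 (-1.32), MYL9 (-1.13) and LMOD1 (-1.82) were higher with BMP4 and TAGLN2 (1.02) with FGF2, with a median of -0.28. MYL9 dropped to -0.96 without FGF2 replicate 1, and TAGLN2 to 0.88 without FGF2 replicate 2 and 0.97 without BMP4 replicate 2. ACTA2 (adjusted p = 0.2201) and MYL9 (adjusted p = 0.1982) were not called in the fit of all 18 arrays, nor TAGLN2 (0.99) without background correction. Integrins and laminins had 15 of 31 tested, with ITGA1 (-2.58) and LAMB2 (-1.66) higher with BMP4, LAMB1-1 (1.55) with FGF2 and a median of -0.07. Guidance molecules had 26 of 39 tested, with SEMA5A (2.50) and EFNB2 (at least 1.985-fold) higher with FGF2, SLIT3 (-1.68) with BMP4 and a median of -0.15. EFNB2 was 0.74 and not called without background correction. The other probes of SEMA5A did not fully follow, at -0.07, 2.39 and 0.37. The IGF pathway had 8 of 10 tested, with IGF2R (1.11) and IGFBP6 (-1.19) called and a median of -0.06, and IGFBP6 was not called without BMP4 replicate 1 (-0.92) or 3 (-1.10, adjusted p = 0.1049). Of 10 EGF family members 6 were tested and NRG1 (1.37) was higher with FGF2, with a median of 0.15. Of 28 HOX genes 11 were tested and 2 were higher with BMP4, among them HOXA2 (-1.20), with a median of -0.22.

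Whether the same differences appear when ES cells lie on the stroma was tested with the ES/PA6 co-cultures that received FGF2 or BMP4, 3 arrays each, in a fit of 12 arrays and 15812 genes in which these settings share no array. The FGF2 minus BMP4 difference itself differed between mono-cultures and co-cultures for 1079 genes (6.82%), 492 with a higher and 587 with a lower value in mono-cultures. In this fit 945 genes were called in mono-cultures (5.98%) and 460 in co-cultures (2.91%), 112 in both with the same sign and 7 with opposite signs. Co-cultures mix RNA of ES and PA6 cells. A smaller difference within the PA6 cells, a smaller share of PA6 RNA and expression in the ES cells cannot be told apart.

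For sterol synthesis genes the median difference was 1.69 in mono-cultures and -0.26 in co-cultures, none of the 21 was called in co-cultures, and the difference between settings was called for 19 of 21 (6.82% of all genes were). NSDHL gave -0.42 in co-cultures, a change between settings of 2.08 (limma adjusted p = 0.001998), while SC5D did not pass (adjusted p = 0.2425). BMP targets had medians of -0.88 and -0.09 and 10 of 20 passed, 9 with a lower and 1 with a higher value in mono-cultures. Among the 9 was ID2, which differed by 0.35 in co-cultures. The 1 BMP target called in co-cultures (2.91% of all genes were) was higher with FGF2. Acute-phase genes had medians of 2.48 and 0.69 with 9 of 16 passing, 8 with a higher and 1 with a lower value in mono-cultures. Cytokines had 0.91 and 0.21 with 19 of 35 passing, 15 with a higher and 4 with a lower value. For adipocyte genes the medians were -1.23 and -0.59, and 7 of 29 passed, 6 with a lower and 1 with a higher value in mono-cultures. In co-cultures 9 were called (2.91% of all genes were), all higher with BMP4. In this fit LMOD1 gave -1.72 in mono-cultures and -1.47 in co-cultures, AOX3 -2.65 and -2.30 and CCL11 1.80 and 1.41, and their change between settings was not called.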

How the data were processed

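Gene expression was measured on Illumina MouseWG-6 v2.0 BeadChips in 18 samples, of which the 6 PA6 mono-cultures with FGF2 or BMP4 were compared. The deposited table gives intensity per probe and array as a bead summary without normalization, which the authors made with GenomeStudio 2011.01 (named in the submitters' processing notes) beside detection p-values against the negative control beads. The study's methods name cubic spline normalization of these values, and neqc was used here in its place because the deposited table is not normalized. Probe intensities ran from 55.5 to 71361.2 with array medians of 115.4 to 148.7, and 5 stray lines after the end of the table were left out. The number of arrays limits the precision.

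The 6 arrays were background-corrected, quantile-normalized and put on the log2 scale with neqc (offset 16, which understates the fold of dim genes). Probes with a detection p-value below 0.05 on at least 3 arrays were kept (18252 of 45281), and the probe with the largest mean stood for each target name. Groups were compared with limma 3.58.1 in R 4.3.3 (lmFit, eBayes), called at an adjusted p below 0.1 and an absolute log2 fold change over 1. A fit of 12 arrays tested the change between mono-cultures and co-cultures. Scripts were tested on simulated data. Of the target names 10680 matched a current symbol in RefSeq GRCm38.p6, and promoter windows are the 250 bases upstream of its starts (32851 windows of 27025 genes). Of 10 motifs searched on both strands, the AP-1 site TGACTCA was in 7.34% of windows of genes higher with FGF2 and 2.78% of those higher with BMP4. It was in 2.94% of windows of tested genes and 4.46% of all. The STAT site TTCNNNGAA was in 2 of 8 acute-phase genes (5.82% of tested genes, 7.02% of all). The C/EBP palindrome TTGCGCAA and the PPAR direct repeat were in none of 14 adipocyte genes (0.164% and 0.0335% of all).

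The labels state that each biological replicate was 1 well per condition, so replicate numbers may pair the arrays. Same-numbered arrays deviated together from their group means (correlations of 0.18, 0.197 and 0.18, against -0.134 to -0.0558 across numbers), and the comparison was also fitted with replicate number as a blocking factor. The BMP4 dose is that of the labels, and the study's methods name a lower one for culture slides.

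The arrays compared, the gene lists and the tests were chosen with earlier results of these data known. Genes named were the 10 largest differences each way among called genes without overlap, the core members of each list and up to 6 called members per list with the largest differences. Adipocyte genes and most sterol genes are given by name, a few genes counted in the lists are not reported here, and other names, among them uncalled members, were chosen after their values were seen. Alternatives covered normalization, the detection filter, the arrays fitted, the replicate block, moderation, thresholds, other probes of a gene and leaving out each array.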

Additional observations from a re-analysis of the deposited data

Results flagged for a closer look

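Of the 10 genes with the largest mono-culture difference each way, 18 had an FGF2 minus BMP4 difference that itself differed between PA6 mono-cultures and ES/PA6 co-cultures (limma interaction term in the 12-array fit, adjusted p below 0.1 and over 1 in size). They were chosen for the size of the mono-culture difference, which enters the tested change. On the FGF2 side the mono-culture difference was larger by 4.73 for SPP1, 4.46 for SERPINA3F, 3.60 for SERPINA3N, 3.57 for HSD11B1, 3.18 for LCN2, 2.98 for SLPI, 2.77 for SAA3 (adjusted p = 0.07344), 2.23 for PRL2C3, 1.69 for IL13RA1 and 1.26 for LOC100046802. SERPINA3N still differed by 5.56 in co-cultures and SERPINA3F by 0.84. On the BMP4 side the change was -5.07 for FAM107A, -4.31 for HEY1, -3.61 for FMO1, -3.39 for LPL, -2.93 for ORM1 (adjusted p = 0.09563), -2.86 for NPR3, -2.81 for BC054059 and -2.60 for CIDEC. HEY1 differed by -0.08 in co-cultures, where FAM107A was detected on 0 of 3 FGF2 and 1 of 3 BMP4 arrays, whereas CIDEC still differed by -3.78. ADIPOQ (-0.66, adjusted p = 0.7084) and CFD (-1.67, adjusted p = 0.3264) showed no called change between the settings. Groups of 3 arrays were too small to look for outlying arrays gene by gene.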

How the results depend on the processing

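The count of 956 genes stayed within 1.5 times under median scaling, the fits of 9 and 18 arrays, 3 other detection filters, every probe in place of 1 per gene, other moderation and an adjusted p below 0.05, and was 922 to 1010 when 1 array was left out. Among these settings the count was 677 with detection required on all 6 arrays. It was 623 with quantile and 621 with cubic spline normalization, neither background-corrected, and 3437 with no fold threshold. The change between settings, 1079 genes, was 651 with quantile normalization without background correction, 509 with detection required on all 12 arrays, and 924 to 1080 without 1 array. With the replicate block, 964 genes were called, including all 956, and 1240 for the change between settings; the block ended no call of the mono-culture comparison. Of 134 called named genes, 104 held under every alternative that tested them and 112 without any 1 array. ACTA2, MYL9, CYR61, COL5A3 (0.98) and SC5D (0.95) were not called with all 18 arrays. With median scaling COL5A3 (0.985) and SC5D (0.94) were not called. Among the named genes no called one changed sign, apart from another probe of SEMA5A (-0.066). Other probes of called named genes kept the sign but were not called in 12 cases. Over all genes, 10 of 258 called genes with more than 1 kept probe had another probe in the other direction. Other probes gave DCN -1.53, -1.23 and -0.15, DUSP4 -0.69 and -0.49, EGFR 0.58 and 0.53, CXCL12 0.25, LAMA4 0.20 and SMAD1 0.074. MMP13 was -0.0019 with quantile and cubic spline normalization, -0.049 with median scaling and -0.0010 with 18 arrays, and CXCL12 0.088 with median scaling. Without 1 array, values ran from -0.26 to 0.093 for AKP2, -0.013 to 0.45 for COL14A1, -0.060 to 0.24 for COL1A1, -0.12 to 0.0053 for CXCL12, -0.020 to 0.063 for DCN, -0.070 to 0.69 for DUSP4, -0.32 to 0.0012 for LAMA4, -0.55 to 0.24 for MCM5, -0.19 to 0.22 for MMP13, -0.40 to 0.088 for SFRP2, -0.31 to 0.051 for SMAD1 and -0.25 to 0.34 for TOP2A. Without background correction signals near background are compressed, and the cause of the other changes was not tested.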
